A study of Mus musculus with 63 samples.

Results

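Described here are 36 genes of the endoplasmic reticulum (ER) folding and stress response in small intestinal tumours of *Apchet;Confetti* mice. The genes were chosen by name from what their products do, with earlier results of these data known. They were looked up by gene symbol in a table of 24766 genes. All 36 were found, lie on 16 chromosomes, had a mean of at least 10 normalised reads and had no value of 0 in any of the 63 libraries. They comprised 11 chaperones and cochaperones, 5 protein disulfide isomerases, 7 stress sensors and transcription factors, 5 genes of degradation from the ER, and 8 genes of translocation, signal peptide cleavage and glycosylation.

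Proteins that a cell secretes or places in its membranes are threaded into the ER through the SEC61 channel, glycosylated, folded by chaperones and cross-linked by protein disulfide isomerases. Unfolded protein in the ER is sensed by the membrane proteins IRE1, ATF6 and PERK, which act through the factors XBP1, ATF6 and ATF4 on the genes of folding and degradation, an arrangement named the unfolded protein response. Goblet cells of the intestine, which make the large disulfide-linked mucin MUC2, carry a form of IRE1 of their own, IRE1β, the product of *Ern2*.

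The study mutagenised mice with tissue-wide loss of 1 *Apc* allele and asked how clones of 1 tumour differ. The mice were *Villin-creERT2;Apc fl/+;Rosa fl/Confetti*, on a C57BL/6 background, with Cre driven by the *Villin* promoter in the intestinal epithelium, and the labels give their genotype as Apchet. When over 8 weeks old, every animal had received 4 mg tamoxifen, then 200 mg/kg N-ethyl-N-nitrosourea (ENU) after another 10 days. RNA came from 20 divided tumours, cut under a fluorescence microscope into a larger (major) and a smaller (minor) clone that differed in Confetti colour, and from 23 undivided tumours, whose titles carry no clone letter. The design text gives the number of monoclonal tumours as 20, and the labels do not say which of the 23 these were, so all were used. Of the 23, 20 are numbered 1 to 10 in their mouse and M15, M17 and M18 lie outside that run. Thus there were 20 major clones, 20 minor clones and 23 undivided tumours. All came from 2 mice, a female and a male, so that sex and mouse cannot be told apart, and p-values measure the spread between tumours of these 2 animals, not between animals. Normal or untreated tissue was not analysed here. A piece also held stroma and immune cells, and in such bulk RNA fewer cells of a type and less RNA per cell cannot be told apart. Tumours are named below by F or M for the mouse and by the number in the labels.

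The values were normalised read counts that summed to between 26140227 and 45909885 per library. Depth, estimated from the most frequent low value of each library taken as 1 read, ran from 13106120 to 52078908 reads, and the lowest value of any member (*Ddit3* in an undivided tumour) then stood for about 7 reads. *Epcam*, which marks epithelium, lay between 31001 and 74424 normalised reads in every library. The share of all reads given to *Rn18s*, a ribosomal RNA, had medians of 1.24% in major clones, 6.19% in the minor clones and 3.11% in undivided tumours. The undivided tumours M15, M17 and M18 stood apart from the other 20. One of these 3 had the lowest level among undivided tumours for 27 of the 36 members, and M15 lay below every divided clone for 18 members, M17 for 12 and M18 for 9. Their *Rn18s* shares were 11.0%, 14.4% and 19.3%, where the other 20 had a median of 2.61% and a highest share of 12.0%. No library was left out of the main comparisons, and results that rest on undivided tumours are also given without these 3, an alternative chosen after seeing the data. The part of *Rn18s* in their levels was not tested.

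Several promoters of these genes are known to carry the ER stress response element (ERSE), to which ATF6 and XBP1 bind together with the CCAAT factor NF-Y. These sequences are shown because the response is known above all by this element. Of the 36 members, 28 had an entry in the RefSeq promoter table (GRCm38.p6), which holds 250 bases before and 50 bases after the start of each gene. The members without an entry were *Hyou1*, *Manf*, *Atf6*, *Ern2*, *Creb3l1*, *Derl1*, *Sec61a1* and *Ostc*. On either strand, ERSE, spelled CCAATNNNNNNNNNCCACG, was present in 8 of the 28 members (28.6%) and in 37 of 27025 genes in the table (0.137%). A second form, ERSE-II, spelled ATTGGNCCACG, was present in 2 of the 28 (7.14%, *Herpud1* and *Dnajb11*) and in 12 of all genes (0.0444%), of which that of *Dnajb11* began 7 bases after the start and is not printed. No promoter held both. The UPRE core TGACGTGG, the amino acid response element TGATGNAAT and the cyclic AMP element TGACGTCA were in none of the 28 windows, against 0.714%, 1.08% and 2.03% of all genes, which says only that these letters are not in these windows. Each matched stretch is printed 5′ to 3′ on the strand of its gene with the element in capitals and 20 bases on either side, at the place where it matched GRCm39. *Hspa5* (BiP) is at chr2:34662017-34662075, plus strand, *Calr* at chr8:85573684-85573742, minus strand, *Canx* at chr11:50216607-50216665, minus strand, *Dnajc3* at chr14:119175219-119175277, plus strand, *Creld2* at chr15:88703703-88703761, plus strand, *Pdia6* at chr12:17316472-17316530, plus strand, *Syvn1* at chr19:6096542-6096600, plus strand, and *Herpud1* with ERSE-II at chr8:95112985-95113035, plus strand. *Hsp90b1* held 2 copies on opposite strands within chr10:86541377-86541540, minus strand.
Hspa5: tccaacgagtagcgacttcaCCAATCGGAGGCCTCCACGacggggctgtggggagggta
Hsp90b1: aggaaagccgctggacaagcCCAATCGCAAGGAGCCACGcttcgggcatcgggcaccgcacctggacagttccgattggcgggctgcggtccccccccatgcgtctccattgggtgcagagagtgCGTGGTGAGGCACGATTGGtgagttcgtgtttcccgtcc
Calr: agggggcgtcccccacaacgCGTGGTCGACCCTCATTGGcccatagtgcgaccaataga
Canx: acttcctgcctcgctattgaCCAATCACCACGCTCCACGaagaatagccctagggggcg
Dnajc3: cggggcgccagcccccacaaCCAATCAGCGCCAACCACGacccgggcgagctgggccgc
Creld2: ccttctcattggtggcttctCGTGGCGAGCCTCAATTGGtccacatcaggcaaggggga
Pdia6: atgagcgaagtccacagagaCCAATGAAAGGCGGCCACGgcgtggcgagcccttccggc
Syvn1: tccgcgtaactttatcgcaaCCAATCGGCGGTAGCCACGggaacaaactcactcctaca
Herpud1: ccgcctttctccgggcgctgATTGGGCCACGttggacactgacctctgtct
In *Calr*, *Creld2* and the second copy of *Hsp90b1* the element read in the opposite direction, as CGTGG followed by ATTGG. Counted from the start in the RefSeq table, which can differ from the start in other annotations, the element began 44 bases before the gene in *Syvn1*, 65 in *Hspa5* and 162 in *Calr*.

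The first comparison asked whether the clones of a tumour differ in these genes. Major clones had slightly more RNA of most members than the minor clones of the same tumours. On the log2(value + 1) scale, with tumour as a block, the difference of major minus minor clone was above 0 for 32 of 36 members, with a median of 0.10, where 51.8% of the 16428 genes tested were above 0 with a median of 0.01. By limma with Benjamini-Hochberg adjustment over all genes tested, 1 member passed an adjusted p of 0.05, the transcription factor gene *Creb3l1*, against 1.14% of all genes (0.67% higher in major clones). At an unadjusted p of 0.05, 13 members passed, all with more RNA in major clones, where 22.4% of all genes passed (12.4% higher in major clones). The differences were small against the scatter of tumours, and all members overlapped between the groups.

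In undivided tumours the members called were disulfide isomerases. Against minor clones, with mouse as a covariate, the median difference of the members was -0.08 on the log2 scale and 11 of 36 were above 0, where 46.7% of all genes were. In this comparison 3 members passed the adjusted test, all lower in undivided tumours: *Pdia3*, *Pdia5* and *Pdia6*, which are protein disulfide isomerases. Of the 16491 genes tested, 3.7% passed in either direction (1.43% lower). At an unadjusted p of 0.05, 8 members were lower and 2 higher (*Dnajb9* and *Herpud1*), against 19.6% of all genes. With M15, M17 and M18 left out, 16 of 36 were above 0 with a median of -0.01, and the 3 members called were *Pdia3*, *Pdia5* and, with more RNA in undivided tumours, *Dnajb9*, against 5.03% of all genes. Against major clones the median was -0.19 with 5 of 36 above 0, while over all genes it was -0.01 with 47.8% above 0. No member passed in that comparison by limma, where 0.0121% of 16510 genes (2 genes) did, but 21 members passed at an unadjusted p of 0.05, all lower in undivided tumours, against 12% of all genes (7.14% lower). Here the median without M15, M17 and M18 was -0.13 with 9 of 36 above 0, no gene passed the adjusted test, and 17 members passed at an unadjusted p of 0.05, 16 of them lower, against 11.1% of all genes. Both comparisons used the same 23 undivided tumours and are not independent of each other.

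**Figure D1:**
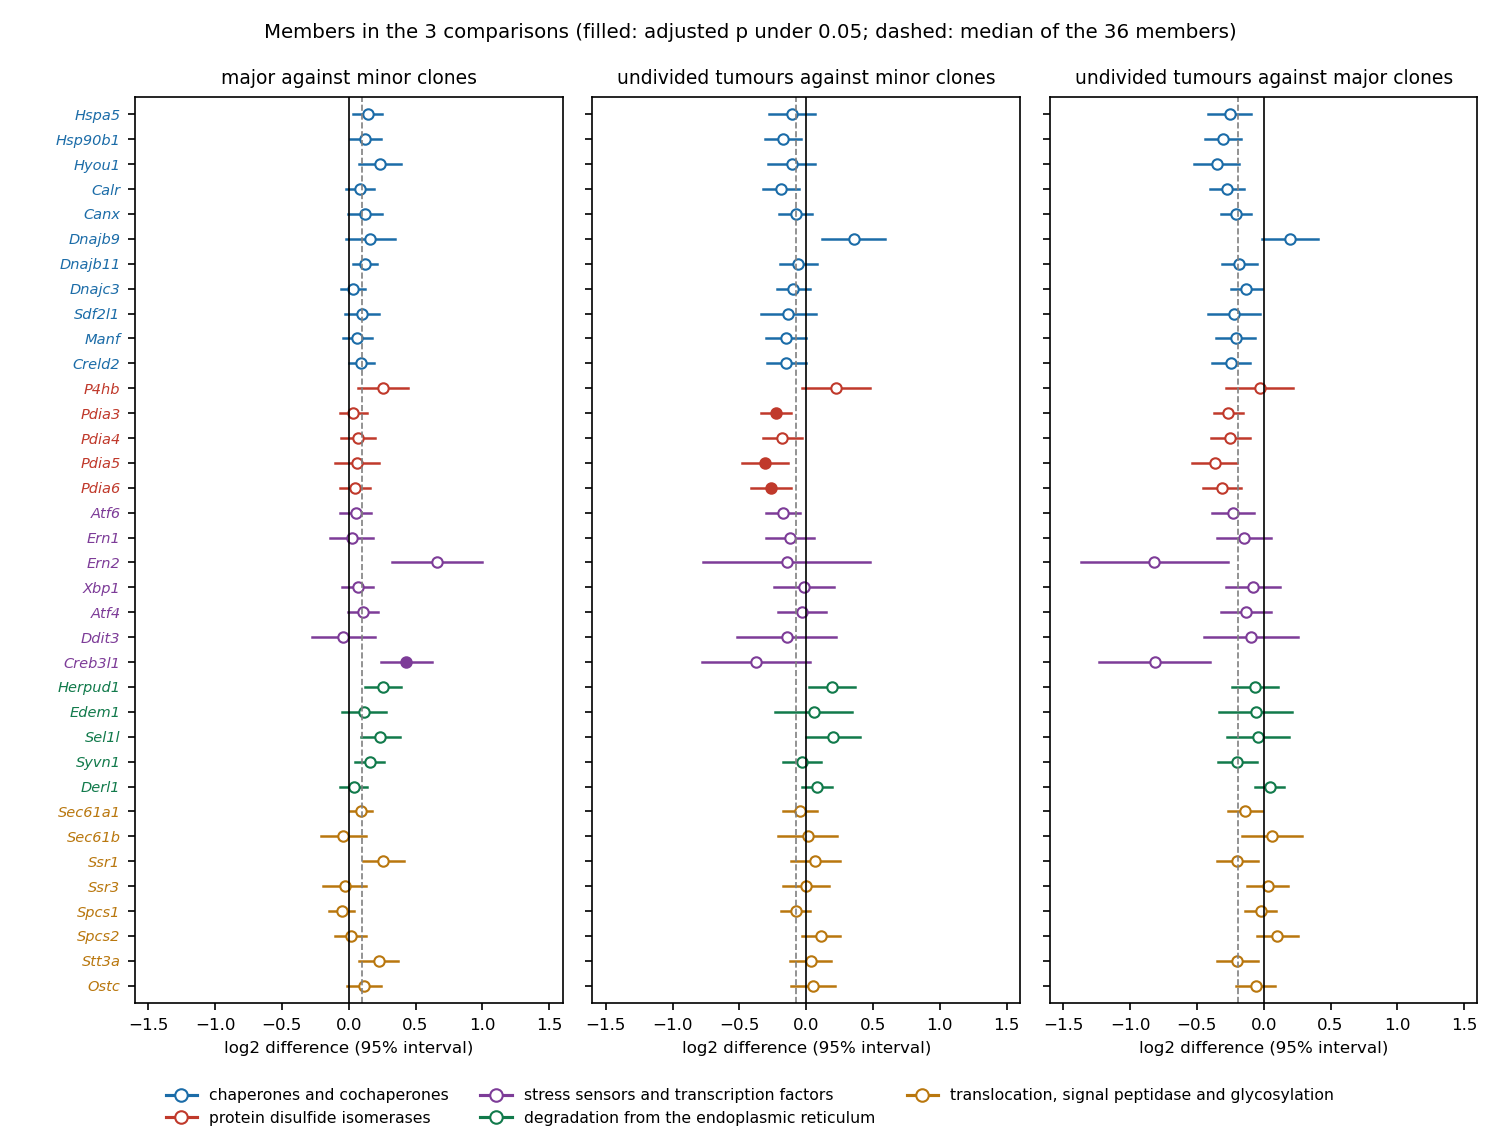
Difference of each of the 36 members on the log2(value + 1) scale with its 95% interval in the 3 comparisons, coloured by role. Filled points passed an adjusted p of 0.05 (*Creb3l1* on the left, *Pdia3*, *Pdia5* and *Pdia6* in the middle), the solid line is 0 and the dashed line the median of the members, at 0.10, -0.08 and -0.19.

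Among the 11 chaperones and cochaperones, every gene was above 0 in major against minor clones, with a median log2 difference of 0.12. None passed the adjusted test and 4 passed at an unadjusted p of 0.05 (*Hyou1*, *Hspa5*, *Dnajb11* and *Hsp90b1*). *Hspa5* encodes BiP, the most general chaperone of the ER, which also holds the stress sensors inactive. Its lowest, median and highest normalised read counts were 16508, 19585 and 25454 in major clones, 12793, 18900.5 and 24609 in the minor clones and 8629.8, 17636 and 22309.8 in undivided tumours. The undivided tumours M15 (8629.8), M17 (9794) and M18 (11996) lay below every divided clone, and the 3 groups otherwise overlapped. The log2 difference of *Hspa5* in major over minor clones was 0.14 ± 0.05 (SE), p = 0.0166, adjusted p = 0.13, a 1.10-fold level (95% interval 1.02 to 1.19), with the major clone higher in 15 of 20 tumours.

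*Hyou1*, a large chaperone that exchanges nucleotide on BiP, had the largest major minus minor difference of the chaperones. It had 3116, 5158 and 6240.0 normalised reads at lowest, median and highest in major clones, 2659, 4492 and 5825 in the minor clones and 2148, 3835 and 6096 in undivided tumours. The log2 difference was 0.23 ± 0.08 (SE), p = 0.00668, adjusted p = 0.0924 in major against minor clones, and -0.35 ± 0.09 (SE), p = 0.000167, adjusted p = 0.132 in undivided tumours against major clones. Without M15, M17 and M18 the latter was -0.28 (adjusted p = 0.224). Its clone difference was above 0 in 4 of 10 tumours of the female and 9 of 10 of the male.

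*Hsp90b1* encodes GRP94, the HSP90 chaperone of the ER, and *Calr* encodes calreticulin, which with calnexin (*Canx*) holds glycoproteins while they fold. For *Hsp90b1* the lowest, median and highest levels were 10152, 14135 and 19288 in major clones, 9301, 13261 and 17439 in the minor clones and 7436, 11319 and 15434 in undivided tumours. *Calr* ran from 26294 to 42494 (median 31934) in major clones, 23061 to 40025 (median 30315) in the minor clones and 16683 to 36098 (median 26603) in undivided tumours. In both genes the median was highest in major clones and lowest in undivided tumours, and the ranges overlapped. Undivided tumours were at 0.810 times the level of major clones for *Hsp90b1* (95% interval 0.738 to 0.888, adjusted p = 0.132) and at 0.826 times for *Calr* (0.757 to 0.902, adjusted p = 0.132). Against minor clones the log2 differences were -0.18 ± 0.07 (SE), p = 0.0133, adjusted p = 0.131 for *Hsp90b1* and -0.19 ± 0.07 (SE), p = 0.00816, adjusted p = 0.102 for *Calr*. Without M15, M17 and M18 that of *Calr* was -0.13 (adjusted p = 0.191). Against major clones without them the log2 differences were -0.26 for *Hsp90b1* and -0.21 for *Calr* (adjusted p = 0.224 for both).

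Of the remaining chaperone genes only *Dnajb11* passed at an unadjusted p of 0.05 between the clones. *Canx* was 0.12 ± 0.07 (SE) on the log2 scale, *Sdf2l1*, which works with the J-domain partners of BiP, 0.10 ± 0.06, and *Creld2* and *Manf*, small secreted proteins made under ER stress, 0.09 ± 0.05 and 0.06 ± 0.05. *Dnajc3*, which encodes the BiP cochaperone p58IPK, had the smallest difference of the chaperones at 0.03 ± 0.05. *Dnajb11*, a J-domain partner of BiP, was at 0.12 ± 0.05 (SE), p = 0.0174, adjusted p = 0.133. All 6 were below 0 in undivided tumours against major clones, with log2 differences from -0.25 (*Creld2*) to -0.13 (*Dnajc3*) and unadjusted p from 0.000539 (*Canx*) to 0.034 (*Dnajc3*). None of these passed the adjusted test.

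*Dnajb9* (ERdj4), a J-domain protein that is among the targets of XBP1, stood apart from the other chaperones. Its levels were 409, 1018 and 1449.9 in major clones, 409, 908 and 1672 in the minor clones and 666, 1149 and 1985 in undivided tumours at lowest, median and highest. Undivided tumours had the highest median, and *Dnajb9* was the one chaperone above 0 in undivided tumours against both classes of clone. The log2 difference was 0.36 ± 0.12 (SE), p = 0.00506, adjusted p = 0.0818 against minor clones and 0.20 ± 0.11 (SE), p = 0.0768, adjusted p = 0.454 against major clones. Without M15, M17 and M18 it was 0.38 against minor clones, with an adjusted p of 0.0481.

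Of the 5 protein disulfide isomerases, which form and rearrange the disulfide bonds of secreted proteins, all but *P4hb* differed little between the clones. Their log2 differences in major against minor clones were 0.26 ± 0.09 (SE) for *P4hb*, 0.07 ± 0.07 for *Pdia4*, 0.06 ± 0.08 for *Pdia5*, 0.05 ± 0.06 for *Pdia6* and 0.04 ± 0.05 for *Pdia3*. Only *P4hb*, the most general of these enzymes, passed at an unadjusted p of 0.05 (p = 0.0118, adjusted p = 0.115).

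In undivided tumours against minor clones the disulfide isomerases held all 3 calls among the members. *Pdia3* (ERp57), which acts on glycoproteins bound to calreticulin and calnexin, had 16989, 21771 and 26848 normalised reads at lowest, median and highest in minor clones, 18317, 22954 and 26824 in major clones and 12881, 19075 and 24796 in undivided tumours. *Pdia5* ran from 626 to 1287 (median 896) in major clones, 536 to 1044 (median 846) in the minor clones and 395 to 961 (median 685) in undivided tumours. *Pdia6* (P5) ran from 4580.5 to 7163 (median 5813) in major clones, 4238 to 7825 (median 5456) in the minor clones and 3095 to 7027 (median 4747) in undivided tumours. In each gene the undivided tumours had the lowest median and the lowest single value, while their upper values overlapped both classes of clone. *Pdia3* fell by 0.23 ± 0.06 (SE) on the log2 scale to 0.853 of the minor clone level (95% interval 0.789 to 0.923, adjusted p = 0.0235). *Pdia5* fell by 0.31 ± 0.09 to 0.807 (0.716 to 0.909, adjusted p = 0.0378), and *Pdia6* by 0.26 ± 0.08 to 0.833 (0.750 to 0.924, adjusted p = 0.0431). The call of *Pdia3* held with each of the 43 tumours left out in turn (adjusted p of 0.0102 to 0.0451), that of *Pdia5* was lost without any of 13 tumours (up to 0.0692) and that of *Pdia6* without any of 22 (up to 0.0776). With M15, M17 and M18 left out together, *Pdia3* was at -0.19 (adjusted p = 0.0308), *Pdia5* at -0.29 (0.0483) and *Pdia6* at -0.23 (0.0601), so that the call of *Pdia6* was lost.

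Against major clones the same 3 genes had log2 differences of -0.27 ± 0.06 (*Pdia3*, adjusted p = 0.0987), -0.37 ± 0.09 (*Pdia5*, 0.132) and -0.31 ± 0.07 (*Pdia6*, 0.132), none of them past the threshold of the fit. Without M15, M17 and M18 these were -0.23 (adjusted p = 0.0816), -0.35 (0.224) and -0.28 (0.224). *Pdia4* (ERp72) was at -0.18 ± 0.07 (SE), p = 0.0201, adjusted p = 0.16 against minor clones and -0.25 ± 0.08 (SE), p = 0.002, adjusted p = 0.255 against major clones. The fifth, *P4hb*, had 47144, 85631 and 149073 normalised reads at lowest, median and highest in major clones, 39178, 77230.2 and 106481 in the minor clones and 42958, 90779 and 152094 in undivided tumours. Its highest median was in undivided tumours, where the log2 difference was 0.22 ± 0.13 (SE), p = 0.0907, adjusted p = 0.341 against minor clones and -0.03 ± 0.13 against major clones. The product of *P4hb* is also a subunit of the enzyme that hydroxylates collagen.

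Of the 7 stress sensors and transcription factors, only *Creb3l1* passed the adjusted test in major against minor clones, with more RNA in major clones. It encodes OASIS, a membrane-bound factor that is cut and released under ER stress and is known for its part in the last steps of goblet cell maturation and in collagen secretion. Its levels were 320.1, 1349 and 2624 normalised reads at lowest, median and highest in major clones, 247, 1003 and 1886 in the minor clones and 322, 764 and 2753 in undivided tumours. The undivided tumours had the lowest median and also the highest single value, in tumour M7, so that all 3 ranges overlapped. *Creb3l1* rose by 0.43 ± 0.10 (SE) on the log2 scale, to a 1.35-fold level (95% interval 1.18 to 1.54, adjusted p = 0.0388), with the major clone higher in 15 of 20 tumours (exact Wilcoxon signed-rank test, two-sided, p = 0.00121, unadjusted). The pair differences ran from -0.25 in F26 to 1.11 in M29. The adjusted p moved between 0.0297 and 0.0772 as single tumours were left out and was above 0.05 without F22, M20, M22, M25, M26, M27, M28 or M29. The labels put the clones of F22 in different segments of the intestine, SI20 for the major and SI10 for the minor clone, and without F22 the difference was 0.43 with an adjusted p of 0.0734. Within the mice the difference was 0.31 in the female (adjusted p = 0.668) and 0.55 in the male (adjusted p = 0.0828). The difference in undivided tumours against major clones was -0.82 ± 0.21 (SE), p = 0.000367, adjusted p = 0.18, and against minor clones -0.38 ± 0.21 (SE), p = 0.0748, adjusted p = 0.311.

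*Ern2* had the largest clone difference of all members and did not pass the adjusted test. It was present at 129, 357 and 1026 normalised reads at lowest, median and highest in major clones, 41.1, 263 and 742 in the minor clones and 77.1, 182 and 1382 in undivided tumours. The range within each group was wide and the groups overlapped over most of it, with the highest value again in M7. The major clone had more *Ern2* RNA in 18 of 20 tumours, 9 of 10 in each mouse, with pair differences from -1.52 in M28 to 2.69 in M22. The log2 difference was 0.66 ± 0.17 (SE), p = 0.000821, adjusted p = 0.0525 (exact Wilcoxon p = 0.00121), or 1.58-fold (95% interval 1.25 to 2.0). Undivided tumours had 0.567 times the *Ern2* level of major clones (0.387 to 0.830, adjusted p = 0.295).

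None of the other sensors and factors passed at an unadjusted p of 0.05 between the clones. *Ern1*, which encodes the IRE1α that all cell types share, was at 0.02 ± 0.08 on the log2 scale in major against minor clones, and its target *Xbp1*, which drives the secretory machinery, at 0.07 ± 0.06. *Atf6* was at 0.05 ± 0.06, *Atf4*, the factor downstream of PERK, at 0.11 ± 0.06, and *Ddit3* (CHOP), an apoptosis-linked target of ATF4, at -0.04 ± 0.12. The 95% intervals of their folds were 0.909 to 1.13 (*Ern1*), 0.964 to 1.14 (*Xbp1*), 0.958 to 1.12 (*Atf6*), 0.996 to 1.16 (*Atf4*) and 0.825 to 1.15 (*Ddit3*). Thus a change of the size fitted for *Creb3l1* (1.35-fold) lay outside each of these intervals.

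*Xbp1* had 5620.1, 7251 and 10383 normalised reads at lowest, median and highest in major clones, 3908, 7133 and 10684 in the minor clones and 4001, 7628 and 10275 in undivided tumours. *Atf6* ran from 1051 to 2592 (median 2262) in major clones, 1265 to 2573 (median 2119.7) in the minor clones and 1182 to 2377 (median 1848) in undivided tumours. *Xbp1* thus had nearly the same median in all groups, whereas the median of *Atf6* was lowest in undivided tumours, with differences of -0.17 ± 0.07 (SE), p = 0.0121, adjusted p = 0.125 on the log2 scale against minor clones and -0.23 ± 0.08 (SE), p = 0.00554, adjusted p = 0.295 against major clones. Without M15, M17 and M18, *Atf6* was at -0.13 against minor clones (adjusted p = 0.216). *Ddit3* was low throughout, with 37.2 to 130.0 (median 71.0) in major clones, 23.1 to 167 (median 74.5) in the minor clones and 7.83 to 169.7 (median 81.6) in undivided tumours. *Atf4* had medians of 2921, 2778 and 2560.5 in major clones, minor clones and undivided tumours, and *Ern1* of 681, 686 and 667. The files give 1 value per gene, so the spliced form of *Xbp1*, which is the active one, was not separated.

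**Figure D2:**
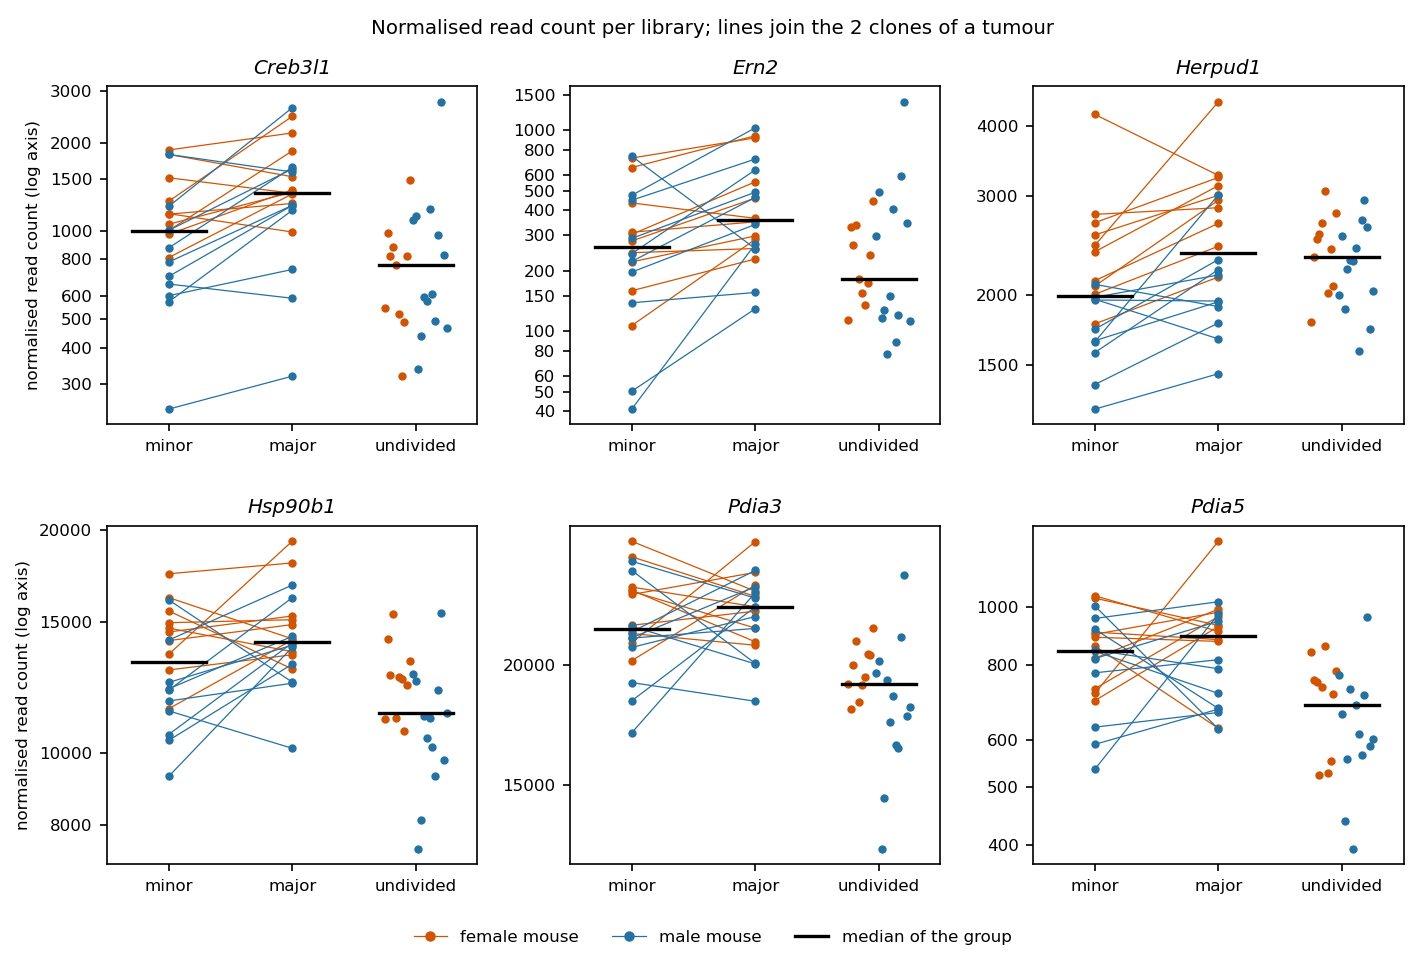
Normalised read count of 6 members in each library on a log axis, with lines joining the clones of a tumour and colour for the mouse. *Creb3l1*, *Ern2* and *Herpud1* had higher medians in major than in minor clones (1349 and 1003, 357 and 263, 2378 and 1995), and *Hsp90b1*, *Pdia3* and *Pdia5* had their lowest medians in undivided tumours (11319, 19075 and 685).

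All 5 genes of degradation from the ER were above 0 in major against minor clones, with a median log2 difference of 0.16, and 3 passed at an unadjusted p of 0.05. Their products take misfolded protein out of the ER to the proteasome: the ubiquitin ligase HRD1 is encoded by *Syvn1* and held by SEL1L, HERPUD1 helps to assemble the complex, EDEM1 trims the mannose of misfolded glycoproteins and derlin-1 forms part of the exit path. *Herpud1* had 1450.0, 2378 and 4413 normalised reads at lowest, median and highest in major clones, 1254, 1995 and 4189.8 in the minor clones and 1589, 2334 and 3064 in undivided tumours. *Sel1l* ran from 1803 to 5451 (median 3739) in major clones, 1966 to 4177 (median 3049.6) in the minor clones and 2367 to 5952 (median 3557) in undivided tumours. In both genes the minor clones had the lowest median, and undivided tumours were close to major clones. The major clone was higher in 16 of 20 tumours for *Herpud1* (log2 difference 0.26 ± 0.07 (SE), p = 0.000951, adjusted p = 0.0557, exact Wilcoxon p = 0.00169) and in 16 for *Sel1l* (0.24 ± 0.07 (SE), p = 0.00428, adjusted p = 0.0774, exact Wilcoxon p = 0.0073).

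*Syvn1* was at 0.16 ± 0.06 (SE), p = 0.00904, adjusted p = 0.102 in the same comparison, *Edem1* at 0.12 ± 0.08 and *Derl1* at 0.04 ± 0.05. Against minor clones, 4 of the 5 degradation genes of undivided tumours were above 0 with a median of 0.08, next to 1 of 11 and -0.11 for the chaperones. Without M15, M17 and M18 these were 4 of 5 and 0.19, next to 2 of 11 and -0.05. *Herpud1* was at 0.19 ± 0.09 (SE), p = 0.0337, adjusted p = 0.207 and *Sel1l* at 0.20 ± 0.10 (SE), p = 0.0557, adjusted p = 0.27 in that comparison. Against major clones the median was -0.06 (0.03 without those 3), and *Syvn1* (-0.20 ± 0.07, p = 0.00988) was the only one of the 5 past an unadjusted p of 0.05. The difference between roles was not tested.

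Of the 8 genes at the entry to the ER, *Ssr1*, which encodes a subunit of the translocon-associated protein, and *Stt3a*, a catalytic subunit of the oligosaccharyltransferase, had more RNA in major clones by 0.26 ± 0.08 (SE), p = 0.00323, adjusted p = 0.0728 and by 0.22 ± 0.08 (SE), p = 0.0067, adjusted p = 0.0924 on the log2 scale. *Ssr1* had 3718, 4799.7 and 6539 normalised reads at lowest, median and highest in major clones, 2228, 4146 and 6717 in the minor clones and 2720.2, 4258 and 5831 in undivided tumours. *Stt3a* ran from 4088 to 8708 (median 6879) in major clones, 3325 to 8703 (median 5923) in the minor clones and 3856 to 7742 (median 6011) in undivided tumours. The major clone was higher in 15 of 20 tumours for *Ssr1* and in 16 for *Stt3a*, and both were below 0 in undivided tumours against major clones (-0.20 ± 0.08, p = 0.0139, and -0.20 ± 0.08, p = 0.014).

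*Sec61a1*, which encodes the pore of the translocation channel, was at 0.09 ± 0.04 (SE), p = 0.044, adjusted p = 0.209 and *Ostc*, an oligosaccharyltransferase subunit, at 0.11 ± 0.07 in major against minor clones. *Sec61b* (a small channel subunit), *Ssr3* (a translocon-associated protein) and *Spcs1* and *Spcs2* (signal peptidase subunits) lay between -0.05 (*Spcs1*) and 0.01 (*Spcs2*). *Sec61b* had 2098, 2701 and 5272 normalised reads at lowest, median and highest in major clones, 1869, 2919 and 3870.0 in the minor clones and 1849, 2877 and 6116 in undivided tumours. Its log2 differences were -0.04 ± 0.09 in major against minor clones, 0.01 ± 0.11 in undivided tumours against minor clones and 0.06 ± 0.11 against major clones, each smaller than its error. The members of this group were above 0 in 5 of 8 cases in the first comparison, 5 of 8 in the second and 3 of 8 in the third, and in 7 of 8 and 4 of 8 in the latter pair without M15, M17 and M18.

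Tumour by tumour, the number of members with more RNA in the major clone ran from 9 of 36 in F27 and 10 in F24 to 34 in M27, with a median of 24. It was above 18 in 14 of the 20 tumours, at 18 in 1 and below 18 in 5. In all, 9 members were higher in the major clone of at least 15 tumours and 10 members in at most 10 tumours. The members of 1 tumour share their libraries and are not independent. In F27, *Sel1l* was -0.55 and *Stt3a* -0.70 on the log2 scale, the lowest of any tumour for both, while in M22 *Ern2*, *Hyou1* (0.95), *Hspa5* (0.57) and *Hsp90b1* (0.58) reached their highest differences. In M26, *Hspa5*, *Hsp90b1*, *Hyou1*, *Calr*, *Canx*, *Pdia3*, *Pdia5* and *Pdia6* had their lowest, from -0.68 (*Pdia5*) to -0.26 (*Hyou1*).

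**Figure D3:**
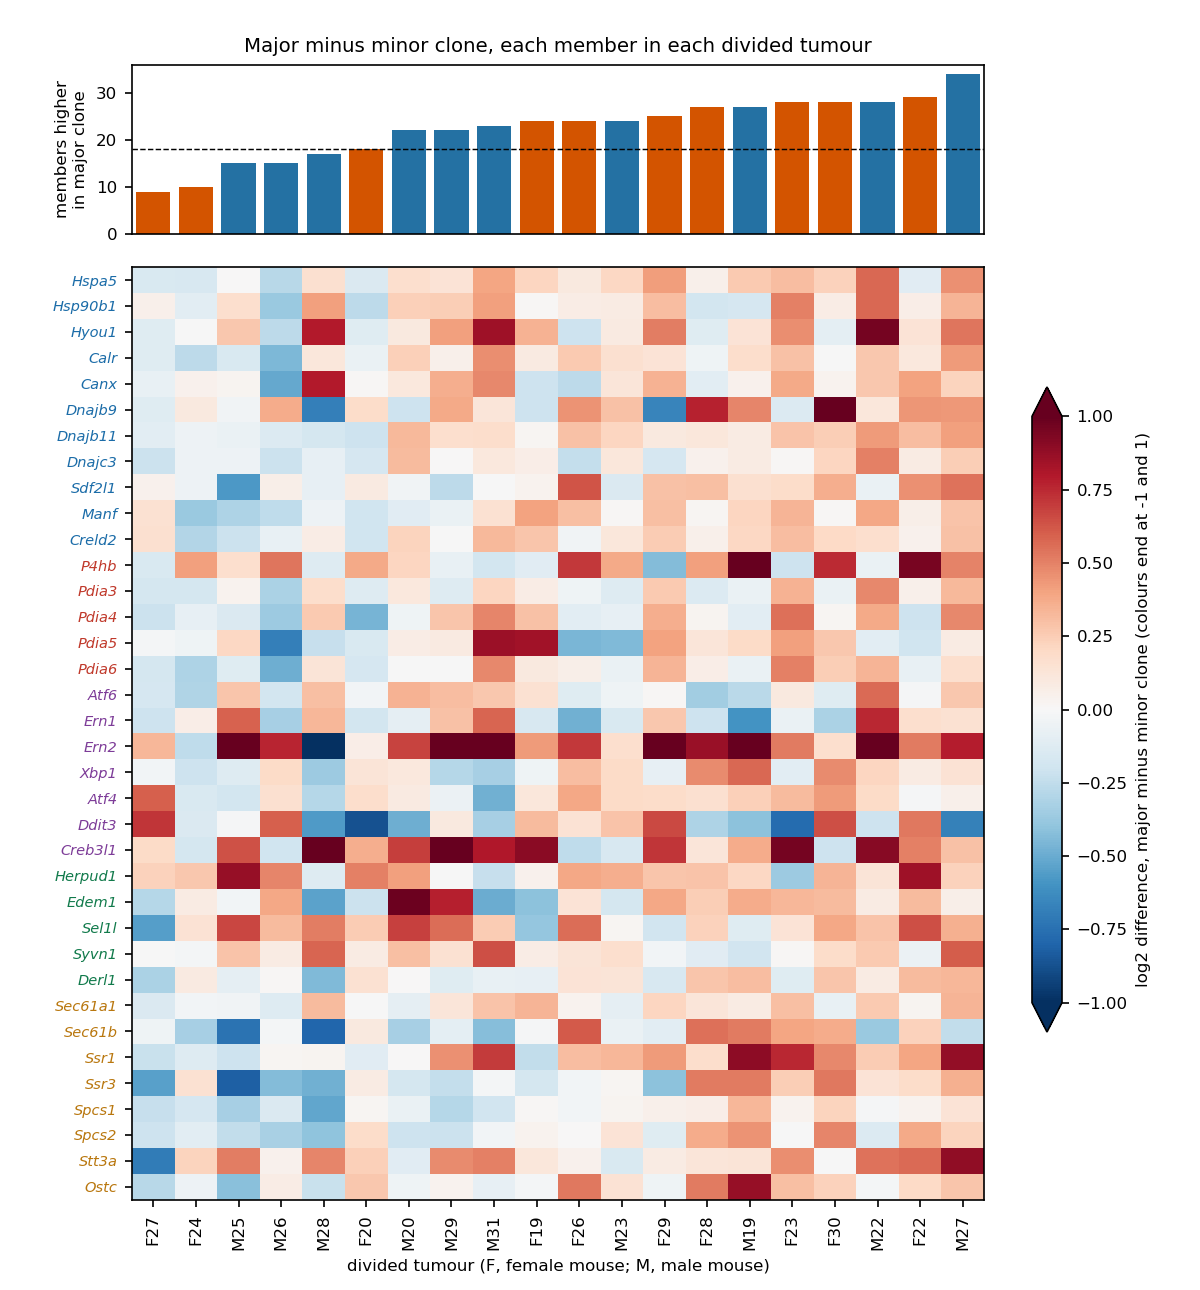
Log2 difference of major minus minor clone for each member (rows, coloured by role) in each divided tumour (columns), ordered by the number of members above 0, which the bars above give with a dashed line at 18. The number runs from 9 in F27 to 34 in M27, and the colour scale ends at -1 and 1.

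A few tumours held many of the extremes. Among undivided tumours, M7 had the highest level of 14 of the 36 members and M15 the lowest of 17, M18 of 7 and M17 of 3. The major clone of F22 was highest in 11 members and that of M19 lowest in 16, and the minor clone of M19 was lowest in 12. With M7 left out, 7 members passed the adjusted test in undivided tumours against major clones, and with M19 left out 3 passed, where none passed with all tumours. As each tumour was left out in turn, 0 to 25 of all genes tested passed in that comparison.

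Whether the clone difference itself differed between the mice was tested as an interaction. No gene of 16428 passed the adjusted test and 1257 (7.65%) passed at an unadjusted p of 0.05, among them 6 members. Of the members 20 of 36 were above 0 (male minus female) with a median of 0.04, where 50.7% of all genes were above 0. *Sec61b* had the smallest p, with a log2 clone difference in the male minus that in the female of -0.43 ± 0.15 (SE), p = 0.00831, adjusted p = 0.633. The major clone had more *Sec61b* RNA in 6 of 10 tumours of the female (mean difference 0.18) and in 1 of 10 of the male (-0.26). *Syvn1* (0.26 ± 0.10, p = 0.0131), *Atf6* (0.27 ± 0.10, p = 0.016) and *Hyou1* (0.31 ± 0.15, p = 0.0457) were more strongly on the side of the major clone in the male. *Sdf2l1* (-0.27 ± 0.12, p = 0.0304) and *Atf4* (-0.23 ± 0.11, p = 0.042) were so in the female. None of these passed the adjusted test.

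Along the intestine, undivided tumours labelled SI20 were compared with those labelled SI10, with mouse as a covariate. Of the members, 28 of 36 were above 0 with a median of 0.10, where 49.9% of all genes were, and no member passed the adjusted test, against 0.17% of 16511 genes. At an unadjusted p of 0.05, where 7.62% of all genes passed, *Pdia6* (0.27 ± 0.11, p = 0.0162) and *Pdia3* (0.18 ± 0.08, p = 0.0416) were higher and *Spcs2* (-0.26 ± 0.10, p = 0.019) lower in SI20. *Ern2* had the largest difference, 0.70 ± 0.39 (SE), p = 0.0875, adjusted p = 0.688. With those 3 tumours (M15, M17 and M18) left out, 25 members were above 0 with a median of 0.05 and no gene passed.

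Across the 23 undivided tumours most members varied little and varied together. Within mice the standard deviation of log2 values had a median of 0.283 over the members, against 0.479 over the 16511 genes with a mean of at least 10. The members and these genes were not matched for expression level, so the lower spread is not shown to be particular to the members. *Canx* (0.168) and *Derl1* (0.182) were the steadiest, and *Ern2* (1.04), *Creb3l1* (0.734), *Ddit3* (0.685) and *Edem1* (0.601) the most variable. The Pearson correlation between pairs of members, centred within mice, had a median of 0.445 over 630 pairs, and 43.2% of pairs were above 0.5, where pairs of all genes had a median of 0.00 and 6.25% above 0.5. Over the 20 tumours without M15, M17 and M18 the median of member pairs was 0.315, with 30.5% above 0.5, against 0.00 for all genes, and the median standard deviation was 0.234. These are descriptions, since the genes of a library share its depth, scaling and mixture of cells.

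Over the 23 tumours the chaperones were the closest group, with a median r of 0.666 within them, followed by the disulfide isomerases (0.566), the degradation genes (0.466), the translocation genes (0.426) and the sensors and factors (0.337). This order did not hold without M15, M17 and M18: the chaperones were at 0.39, the disulfide isomerases at 0.483, the degradation genes at 0.413, the translocation genes at 0.389 and the sensors and factors at 0.277. Among the closest pairs over the 23 were *Dnajb11* with *Dnajc3* (r = 0.936, and 0.815 without those 3), *Sdf2l1* with *Creld2* (0.928, 0.843), *Manf* with *Creld2* (0.91, 0.865), *P4hb* with *Xbp1* (0.899, 0.861) and *Pdia4* with *Pdia6* (0.893, 0.879). *Ern2* was closest to *Creb3l1* (0.882, 0.896), and *Hspa5* to *Dnajb11* (0.899, 0.718). *Spcs2* had a median of -0.159 over its pairs, which was 0.07 without M15, M17 and M18. Over the 23 tumours *Canx* followed no other member closely, its highest r being 0.509 with *Pdia6*. Without those 3 its r with *Hsp90b1* was 0.608. In the major minus minor differences of the 20 divided tumours the median over pairs of members was lower, 0.223, with 24.9% above 0.5, against 0.00 and 4.70% for pairs of all genes. There *Hspa5* was closest to *Pdia6* (0.903), *Sec61b* to *Ostc* (0.900) and *Canx* to *Hyou1* (0.755), while the differences of *P4hb* and *Creb3l1* had an r of -0.655.

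**Figure D4:**
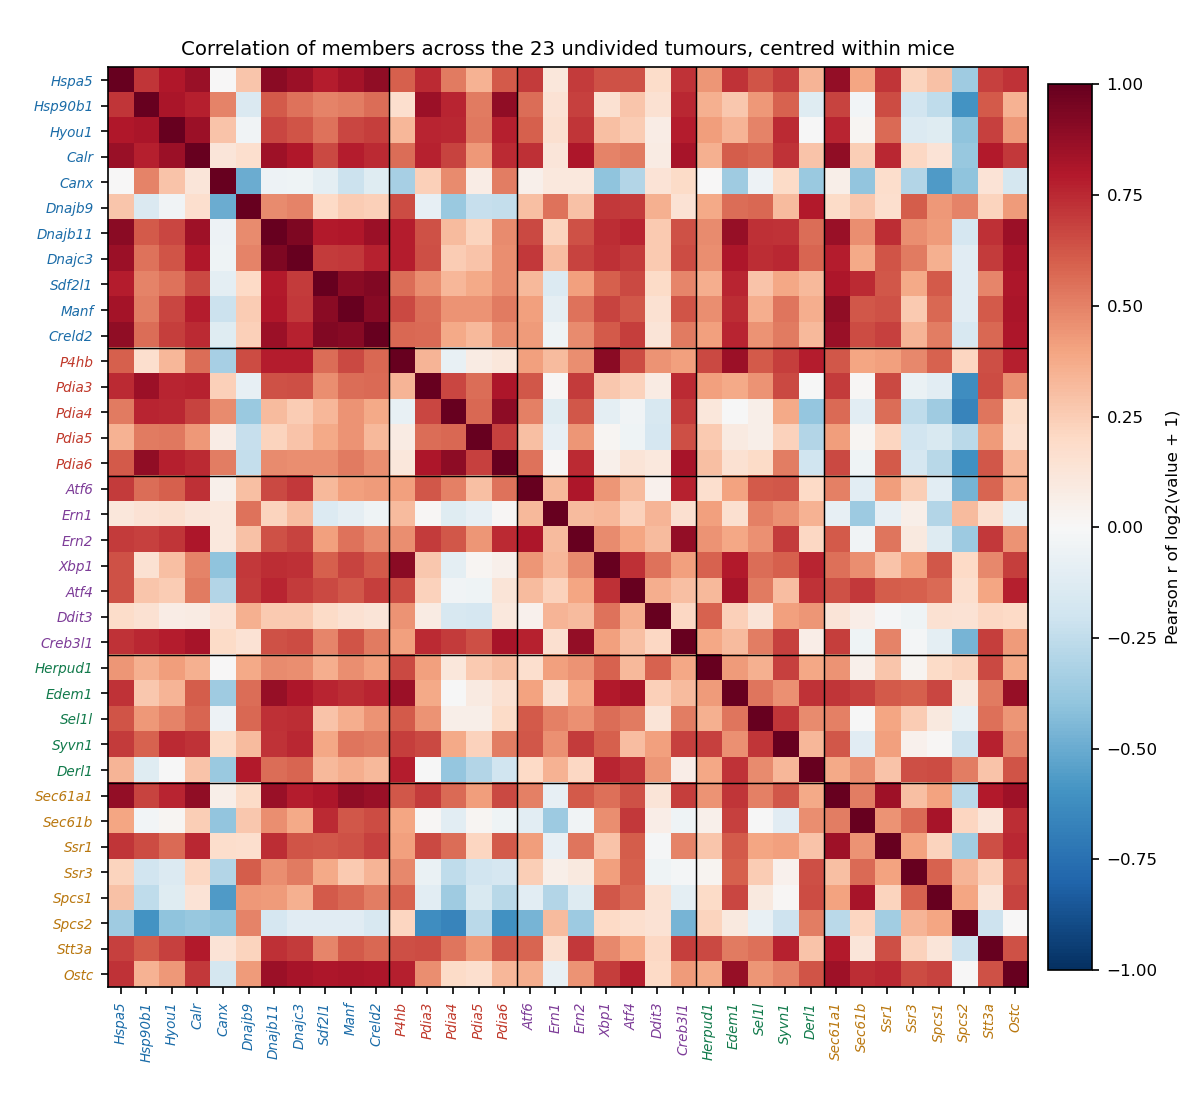
Pearson correlation of log2(value + 1), centred within mice, between all pairs of members over the 23 undivided tumours, ordered and coloured by role with lines between roles. The block of chaperones has a median r of 0.666, and the row of *Spcs2* is mostly negative with a median of -0.159, values that were 0.39 and 0.07 without M15, M17 and M18.

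The 10 members with ERSE or ERSE-II in the promoter window were set beside the 18 that had a window without either. With the element, 10 of 10 were above 0 in major against minor clones with a median of 0.12, and without it 14 of 18 with a median of 0.07. In undivided tumours against major clones 0 of 10 and 4 of 18 were above 0, with medians of -0.23 and -0.09. The pairs among the 10 had a median r of 0.562 over undivided tumours and those among the 18 of 0.329 (0.499 and 0.244 without M15, M17 and M18). The 8 members without an entry, whose promoters were not searched, were above 0 in 8 of 8 cases in major against minor clones, with a median of 0.10. In undivided tumours against major clones 1 of 8 was above 0, with a median of -0.22. Pairs among these 8 had a median r of 0.607 (0.469 without M15, M17 and M18). These values are a description of short lists that were not tested against each other.

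The last question was whether the members follow *Muc2*, the main secreted product of goblet cells. *Muc2* had 4099, 21216 and 43642 normalised reads at lowest, median and highest in major clones, 646, 13746 and 43562 in the minor clones and 2662, 8815 and 30379 in undivided tumours. Its log2 difference was 0.69 ± 0.22 (SE), p = 0.00501, adjusted p = 0.0817 in major against minor clones, higher in 14 of 20 tumours, and -1.15 ± 0.27 (SE), p = 0.000118, adjusted p = 0.132 in undivided tumours against major clones. *Muc2* thus stood in the same order of medians as *Creb3l1*, *Ern2*, *Hsp90b1* and *Calr*, with ranges that overlapped widely.

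Within the undivided tumours, the slope of a member on *Muc2* (log2 change of the member per doubling of *Muc2*, with mouse as a covariate) was positive for 35 of 36 members, with a median of 0.13, where 50.1% of the 16510 genes tested were positive with a median of 0.00. No member passed the adjusted test by limma, against 0.824% of all genes, and 22 members passed at an unadjusted p of 0.05, all positive, against 18.4% of all genes (11.2% positive). The members with the smallest p were *P4hb* (0.31 ± 0.09 (SE), p = 0.00131, adjusted p = 0.0776), *Ostc* (0.19 ± 0.05 (SE), p = 0.00144, adjusted p = 0.0782), *Dnajc3* (0.14 ± 0.04 (SE), p = 0.00202, adjusted p = 0.0857), *Dnajb11* (0.17 ± 0.05 (SE), p = 0.00211, adjusted p = 0.0867), *Creb3l1* (0.43 ± 0.13 (SE), p = 0.00387, adjusted p = 0.108) and *Sec61a1* (0.16 ± 0.05 (SE), p = 0.00424, adjusted p = 0.111). The steepest slopes were those of *Ern2* (0.47 ± 0.21, p = 0.0306), *Creb3l1* and *Ddit3* (0.39 ± 0.13, p = 0.0077). *Xbp1* was at 0.24 ± 0.08 (p = 0.00548), *Hspa5* at 0.17 ± 0.07 (p = 0.0143), *Pdia4* at 0.04 ± 0.06 (p = 0.498) and *Ern1* at 0.02 ± 0.08 (p = 0.795). With M18 left out 6 members passed the adjusted test and with F10 left out 1 passed. As each undivided tumour was left out in turn, 15 to 910 of all genes tested passed. Without M15, M17 and M18, 35 of 36 slopes were positive with a median of 0.09, 12 members passed at an unadjusted p of 0.05 against 16.4% of all genes, and *P4hb* passed the adjusted test (0.35, adjusted p = 0.0474) against 0.888% of all genes.

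As correlations over the same 23 tumours, centred within mice, r with *Muc2* had a median of 0.450 over the members and ran from -0.188 (*Spcs2*) to 0.654 (*Dnajc3*). Without M15, M17 and M18 the median was 0.385, with *P4hb* at 0.736 and *Creb3l1* at 0.468. For *P4hb*, r was 0.648 and rho 0.533 (permutation p = 0.00119 and 0.0107), and r was 0.567 without F9 and F1, the 2 tumours farthest from the median of *Muc2*. For *Creb3l1*, r was 0.56 and rho 0.469 (permutation p = 0.00534 and 0.0278), and r was 0.489 without those 2. Within the mice, r was 0.817 in the female and 0.515 in the male for *P4hb*, and 0.744 and 0.456 for *Creb3l1*. *Pdia4* (r = 0.151) and *Ern1* (r = 0.058) had the lowest values of the disulfide isomerases and of the sensors. These p-values are unadjusted among 36 members, and *Fcgbp*, another goblet cell product, had an r of 0.754.

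**Figure D5:**
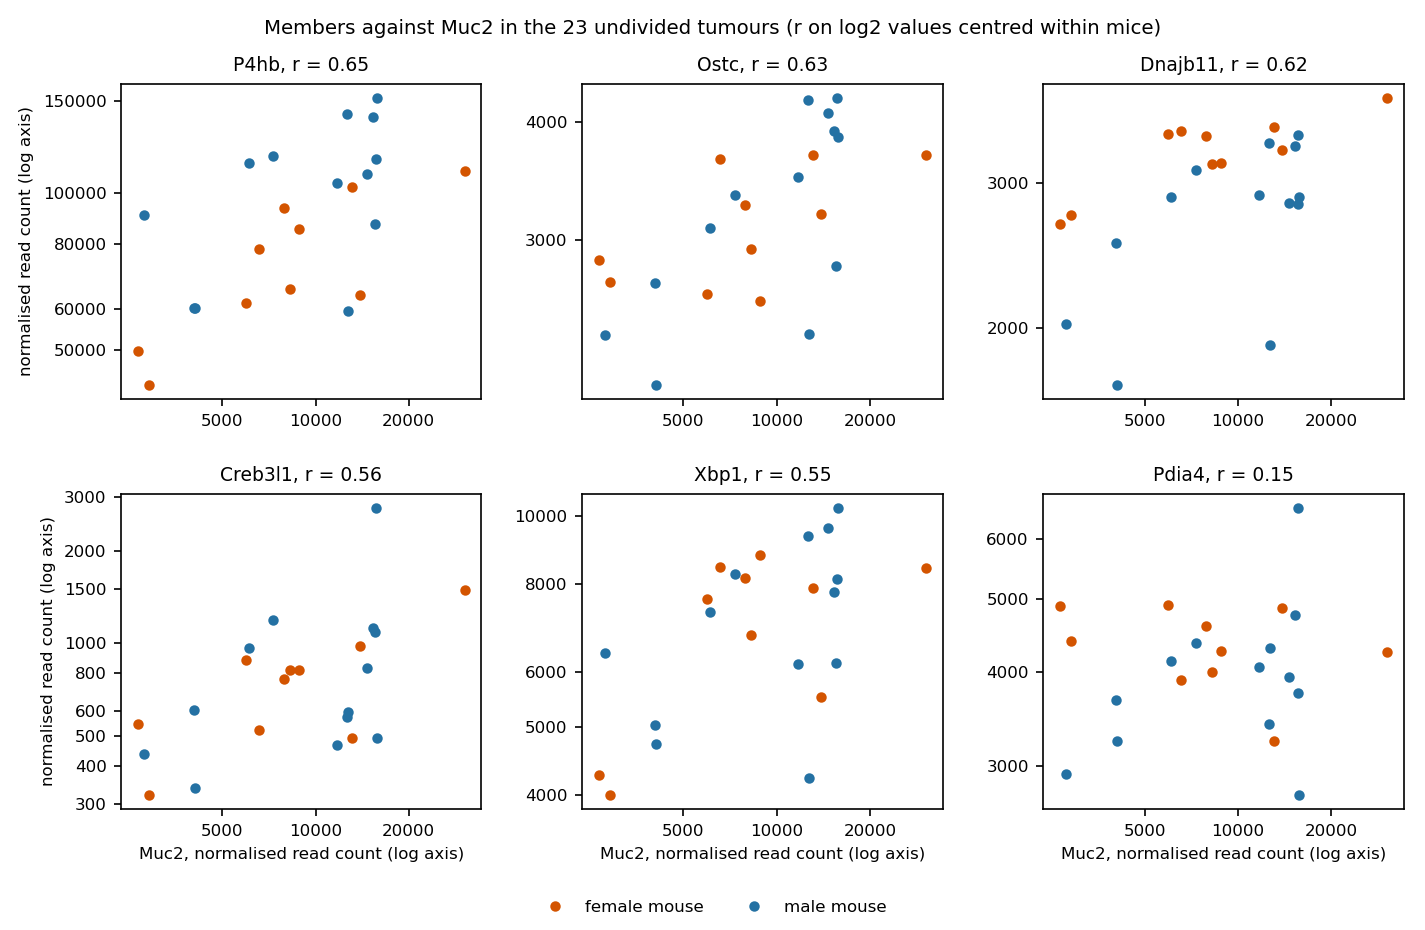
Normalised read count of 6 members against that of *Muc2* in the 23 undivided tumours, both on log axes, coloured by mouse. The points of *P4hb*, *Ostc*, *Dnajb11*, *Creb3l1* and *Xbp1* rise with *Muc2* (r of 0.648, 0.635, 0.625, 0.56 and 0.553), and those of *Pdia4* scatter (r = 0.151).

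Within divided tumours, with tumour as a block and clone class as a covariate, the same slope was positive for 23 of 36 members with a median of 0.03 (51.1% of all genes), no member passed the adjusted test against 0.00609% of 16427 genes, and *Stt3a* alone passed at an unadjusted p of 0.05 (0.15 ± 0.07, p = 0.0352) where 4.35% of all genes did. *P4hb* was at 0.07 ± 0.09, *Creb3l1* at 0.17 ± 0.09 and *Ern2* at -0.05 ± 0.17. The difference between the slopes of divided and undivided tumours was not tested.

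The slopes on the products of 3 other cell types were set beside those on *Muc2* in undivided tumours. On *Lyz1*, of Paneth cells, 33 of 36 members were positive (53.3% of all genes) with a median of 0.07 and none passed, nor did any of all genes by limma (8.56% of them, and 8 of the members, at an unadjusted p of 0.05). *Sdf2l1* (0.26 ± 0.08), *Edem1* (0.36 ± 0.12) and *Sec61b* (0.27 ± 0.09) had the smallest p. On *Chga*, of enteroendocrine cells, 15 of 36 were positive (49.6% of all genes) with a median of -0.02, and *Herpud1* rose (0.23 ± 0.07, adjusted p = 0.0394), against 8.36% of all genes called. On *Chga* without M15, M17 and M18, 25 of 36 were positive with a median of 0.11, and 7 members rose, *Herpud1*, *Derl1*, *Edem1*, *Dnajb9*, *Xbp1*, *P4hb* and *Spcs2*, against 14.8% of all genes. On *Jchain*, of plasma cells, which are themselves rich in this machinery, 20 of 36 were positive (48.1% of all genes) with a median of 0.01, none passed against 1.39% of all genes, and *Herpud1* had the smallest p (0.18 ± 0.05 (SE), p = 0.00249, adjusted p = 0.104). Without those 3 tumours, 32 of 36 were positive on *Jchain* with a median of 0.08 and 22 on *Lyz1* with a median of 0.03, and none passed on either.

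Markers of several cell types moved with the groups beside these genes. In major against minor clones the markers of goblet cells were above 0 in 10 of 10 genes tested (median log2 difference 0.56), of enteroendocrine cells in 8 of 8 (0.61), of plasma cells in 9 of 10 (0.53), of fibroblasts in 8 of 10 (0.55), of enterocytes in 10 of 10 (0.50) and of Paneth cells in 6 of 8 (0.45). The summed goblet cell markers ran from 103934 to 307218 normalised reads in major clones, from 28808 to 247637 in the minor clones and from 51450.1 to 365281 in undivided tumours. The medians of this sum were 162759 in major clones, 132757 in the minor clones and 162305 in undivided tumours, so that undivided tumours were not lowest. Between undivided tumours and major clones the fibroblast markers were above 0 in 0 of 10 genes with a median of -0.71 and the goblet cell markers in 2 of 10 with a median of -0.48. Against minor clones the fibroblast markers had a median of -0.16, the enteroendocrine markers rose in 5 of 8 genes (median 0.90), the enterocyte markers were above 0 in 10 of 10 (median 0.53, 2 past the adjusted test) and the plasma cell markers in 8 of 10 (median 0.51). The slope on *Muc2* in undivided tumours was positive for 10 of 10 fibroblast markers (median 0.52) and for 10 of 10 markers of epithelium (0.21). No marker of these lists was at 0 in most libraries, and the part of these cells in the differences of the members was not tested. With log2(*Jchain* + 1) as a covariate, none of the 3 disulfide isomerases nor *Creb3l1* passed, and *Creb3l1* was at 0.42 (adjusted p = 0.237). It was at 0.35 (adjusted p = 0.139) with log2(*Col1a2* + 1) and at 0.46 (adjusted p = 0.307) with log2(*Rn18s* + 1) as a covariate, both chosen after seeing the data. In undivided tumours against minor clones with *Jchain*, *Pdia3* was at -0.24, *Pdia5* at -0.33 and *Pdia6* at -0.27 (adjusted p = 0.093, 0.118 and 0.158). Calls over all genes there went from 610 to 3. All 3 isomerases passed with *Col1a2* (adjusted p = 0.0133, 0.0273 and 0.0194) and with *Rn18s* (0.00246, 0.0115 and 0.00233).

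Other genes of the same machinery, listed by role, mostly did not pass in major against minor clones. Of 38 further folding enzymes and cochaperones, *Selenom*, a selenoprotein of the ER, rose (0.61 ± 0.11, adjusted p = 0.0197) and *Rcn1*, a calcium-binding protein of the ER, fell by 0.68 ± 0.16 (adjusted p = 0.0392). Of 27 genes of glycan trimming and degradation 2 rose, *Prkcsh*, a subunit of glucosidase II (0.19 ± 0.04), and *Os9*, a lectin of the HRD1 complex (0.20 ± 0.05). None of 27 further translocation genes, 21 further sensors and regulators or 24 target genes of ATF4 passed, nor did any of 22 cytosolic and mitochondrial chaperones, whose median was 0.01. At an unadjusted p of 0.05, 4, 5, 6 and 2 genes of these 4 lists passed in that order, where 22.4% of all genes did. The adjusted test was passed by 1.14% of all genes in this comparison. Of 28 genes of vesicle coats and Golgi transport, the next step of secretion, 25 were above 0 with a median of 0.13, and *Sec31a* (0.30 ± 0.06) and *Sec24a* (0.30 ± 0.07), subunits of the coat that leaves the ER, rose.

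Between undivided tumours and minor clones, *Rcn1* (fell by 0.78) and *Cnpy3* (fell by 0.17) of the folding enzymes and *Stc2* (fell by 1.10), a secreted target of ATF4, passed on the log2 scale. Of the vesicle genes *Sec23a* (0.50 ± 0.14) and *Sar1b* (0.39 ± 0.12) rose and *Tmed9* fell by 0.27. The 38 folding enzymes had a median of -0.13 there, next to -0.11 for the 11 member chaperones. Against major clones no gene of these lists passed the adjusted test. On *Muc2* in undivided tumours the vesicle genes had positive slopes in 27 of 28 genes with a median of 0.17, and *Kdelr3* (0.77 ± 0.14), *Sec24d* (0.47 ± 0.10) and *Copa* (0.24 ± 0.05) passed. *Creb3l3*, a relative of *Creb3l1*, also passed (0.52 ± 0.12). The cytosolic and mitochondrial chaperones, which do not serve the ER, had a median slope of -0.11 with 6 of 22 positive.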

How the data were processed

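RNA of 63 tumour pieces was read as stranded, paired-end mRNA libraries. Per the labels and the study's methods, the authors used FastQC 0.11.9, Trimmomatic 0.39, STAR 2.7.7a and Picard 2.27.3 on GRCm39 and quantified genes with Salmon 1.9.0 and DESeq2. The deposited values are a signal, normalised read counts that need not be whole, whose scaling is not given further in the sources used here. Summing transcripts into 1 value per gene hides isoforms, and genes with near-identical copies may share reads.

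Major and minor classes came from the study's source data, matched by sample title, and undivided tumours from titles without a clone letter. Values were tested as log2(value + 1) with limma 3.58.1 in R 4.3.3 (eBayes with trend, Benjamini-Hochberg adjustment over all genes with a mean of at least 10 in the libraries compared, threshold 0.05), which was tested on simulated data. Intervals of 95% are normal intervals from the standard error. A fold change on this scale understates the change of low genes. Tumour was a block for the clones, since both came from the same tumour (in F22 the clones carry different segment labels): their deviations correlated with a median of 0.211, above 0.1 in 16 of 20 tumours, and with a median of -0.016 between different tumours. Other fits had mouse as a covariate. Single members were also compared by the exact two-sided Wilcoxon signed-rank test, unadjusted over the 36 members, and correlations with *Muc2* by two-sided permutation tests (100000 shuffles within mice, so that the smallest p possible is 1e-05), in Python 3.11.15 with scipy 1.17.1. Positions and motifs were read from Gencode M39 and from RefSeq promoters.

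Named in each comparison were all members with an adjusted p under 0.05, or the 6 with the smallest p, with 13 members taken for their role, and up to 3 genes from each other list; further members were named to account for all 36. Of the listed genes, 2 (*Tusc3* and *Nars1*) were not matched. Members and lists were chosen with earlier results of these data known. Other pseudocounts, filters, scalings, covariates, single mice leaving out each tumour, and leaving out 3 undivided tumours together, were tried.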

Additional observations from a re-analysis of the deposited data

How the results depend on the processing

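In major against minor clones, where 1 member passed, 0 passed with no filter on low values, without the trend, with *Jchain* as a covariate, in the female alone and in the male alone, and 2 passed with a mean of at least 50, with quantile normalization and with equal library sums. With no replicate block (mouse as covariate in place of the pairing by tumour) 0 passed there, and 14 members passed in the slope on *Muc2* within divided tumours, where 0 passed with the block. The calls over all genes in that slope without the block are not given here. In undivided tumours against minor clones, where 3 passed, 1 passed with no filter, 7 with quantile normalization, 0 with *Jchain* as a covariate, 0 in the female alone and 1 in the male alone. The slope on *Muc2* in undivided tumours had 2 calls with mouse and segment as covariates and 2 with *Fcgbp* in place of *Muc2*, against 0. The slope on *Chga* had 0 calls with no filter, without the trend or with *Jchain* as a covariate and 2 with a mean of at least 50, against 1. Of the covariates chosen after seeing the data, *Rn18s* gave 0 calls in major against minor clones and 7 in undivided tumours against minor clones, and *Col1a2* gave 0 in the former. Leaving out the undivided tumours M15, M17 and M18 together, also chosen after seeing the data, gave 1 call in the slope on *Muc2* in undivided tumours (*P4hb*) and 7 in the slope on *Chga*. Calls over all genes are given below for a few of these settings only, and they changed widely between settings. The counts of members in this paragraph are thus not results about the members in particular. The cause of these changes was not tested.

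Leaving out each tumour in turn gave 0 to 5 calls in major against minor clones (5 without F19, 3 without F27, 2 without F23 or M31, and 0 without F22, M20, M22, M25, M26, M27 or M29). It gave 1 to 4 in undivided tumours against minor clones (1 without F20, F22, F28, F7, M15, M17, M2, M23, M25, M26, M29 or M5), 0 to 7 against major clones, 0 to 6 for the slope on *Muc2* in undivided tumours and 0 to 0 within divided tumours. Over all genes the calls in those fits ran, in that order, from 274 to 959, 0 to 25, 15 to 910 and 0 to 5. Under the other settings 28 to 34 members stayed above 0 in major against minor clones, 5 to 16 in undivided tumours against minor clones, 2 to 11 against major clones, 30 to 36 in the slope on *Muc2* in undivided tumours, 15 to 32 in that within divided tumours (median of members from -0.02 to 0.07), 22 to 35 on *Lyz1*, 7 to 25 on *Chga* (median from -0.17 to 0.11) and 12 to 32 on *Jchain* (median from -0.02 to 0.08). Over all genes, the calls in major against minor clones numbered 188, and 1 with *Jchain* as a covariate, 1 without the block and 25 to 859 with 1 tumour left out. In undivided tumours against minor clones they numbered 610 (2.27% of genes higher, 1.43% lower), 649 with equal library sums (1.44% higher), where the median of all genes moved to -0.11, 1455 with *Rn18s* and 3 with *Jchain* as a covariate. Single values were followed under the alternatives for 25 results only, members called or among the 6 with the smallest p of a comparison. Of their 1107 values, 1002 kept their side of the threshold and none changed sign. As these were picked for a small p, a change of sign was unlikely from the outset. Over all 36 members the numbers above 0 moved as given above. Depth limits *Ddit3* most.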
